A study of Homo sapiens with 11 samples.

Results

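Interferon-stimulated genes are the genes that a cell switches on when interferon binds its receptors. A list of 39 such genes was followed in T47D, an established human breast cancer line that carries estrogen and progesterone receptors, and a probe set was used where the array annotation named 1 listed gene and no other. Of the 39 genes, 38 were measured, by 61 probe sets, among 19775 genes named on the array. STAT2 is not analysed here, because no probe set carried its name alone in the annotation used.

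RNA was measured on 11 Affymetrix arrays, 1 RNA sample each, in 9 groups. All cells spent 4 h in 10% serum stripped of steroids with charcoal and were sampled after a further 3 h. Untreated control had 2 arrays, and so did E2-BSA, estradiol joined to bovine serum albumin and given at 1 µM. The other 7 groups had 1 array each: estradiol (1 µM), ethanol (0.1%), BSA (1 µM), ICI (10 µM), G15 (10 µM), and E2-BSA in the presence of each antagonist at those same doses. E2-BSA is used as a form of the hormone meant to act at the cell surface, BSA is its carrier, and G15 is known as an antagonist of the G protein-coupled estrogen receptor. ICI is given here by its label alone. Nothing in the labels says whether the replicate arrays are separate cultures, so p-values measure the spread between these arrays, which may be technical.

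The deposited values are read as log2 and are centred for each probe set, so they keep differences between arrays and no expression level. Levels of different genes could not be compared, and the T47D label could not be checked by the presence or absence of marker transcripts. The arrays fell into 2 sets that cross the groups. Control 1, E2-BSA 1 and estradiol form the smaller set of 3 arrays, which correlated with each other at 0.824 or more and with the 8 arrays of the larger set at -0.330 or less. Between these sets, 18 of the 38 genes were higher and 20 lower in the smaller set. ISG20, an RNA exonuclease gene, differed most, by -1.48 on the log2 scale. Control 1 and control 2 differed by 1 or more in 10 of the 38 genes, against 8.36% of all genes. The difference between the 5′ and 3′ control probe sets of ACTB, which moves with RNA length, was 0.65 to 0.79 in the smaller set and -0.37 to 0.00 in the larger. Comparisons were therefore made within an array set, or with the array set as a block. What separates the sets is not in the labels.

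Type I interferons signal through a receptor bound to the kinases JAK1 and TYK2. These phosphorylate STAT2, which acts with IRF9 in the factor ISGF3. ISGF3 binds the interferon-stimulated response element (ISRE) in the promoters of its targets, whose products sense, bind or destroy viral RNA or block viral entry and budding. STAT2, IRF7, IRF9 and the RNA sensors are themselves induced, so the pathway feeds back on itself. Many epithelial and tumour cells also keep a low level of these transcripts without added interferon.

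The promoters of the genes on which the results turn are shown first, where the table held them, so that the letters searched for the ISRE can be seen. Each sequence holds the 200 bases before a RefSeq transcript start (GRCh38.p14), 5′ to 3′ on the gene's own strand. Capitals mark a match, on either strand, to the ISRE core, which was searched as GAAA, any 2 bases and GAAA.
IFIT1, chr10:89392423-89392622, + strand: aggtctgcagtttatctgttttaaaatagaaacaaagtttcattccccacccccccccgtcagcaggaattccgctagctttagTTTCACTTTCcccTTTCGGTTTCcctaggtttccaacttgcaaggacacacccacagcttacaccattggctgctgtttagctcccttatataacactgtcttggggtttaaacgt
IFIT3, first start, chr10:89327797-89327996, + strand: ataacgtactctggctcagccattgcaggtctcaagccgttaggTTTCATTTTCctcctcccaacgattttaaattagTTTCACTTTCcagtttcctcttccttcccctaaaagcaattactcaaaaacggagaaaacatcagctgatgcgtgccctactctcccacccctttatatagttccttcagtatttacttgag
IFIT3, second start, chr10:89332329-89332528, + strand: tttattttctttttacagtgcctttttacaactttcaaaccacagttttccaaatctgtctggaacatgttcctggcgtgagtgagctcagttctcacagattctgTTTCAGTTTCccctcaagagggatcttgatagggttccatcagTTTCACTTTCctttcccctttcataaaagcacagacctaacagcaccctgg
IFIT5, chr10:89414368-89414567, + strand: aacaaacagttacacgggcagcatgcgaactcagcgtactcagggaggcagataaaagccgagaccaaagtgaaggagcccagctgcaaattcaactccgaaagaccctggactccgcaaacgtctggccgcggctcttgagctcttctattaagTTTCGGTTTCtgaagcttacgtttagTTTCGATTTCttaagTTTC
IRF9, chr14:24161065-24161264, + strand: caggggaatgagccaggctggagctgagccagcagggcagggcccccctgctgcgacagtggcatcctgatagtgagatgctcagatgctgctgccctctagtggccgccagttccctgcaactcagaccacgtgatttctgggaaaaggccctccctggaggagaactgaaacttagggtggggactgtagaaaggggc
ISG15, chr1:1013297-1013496, + strand: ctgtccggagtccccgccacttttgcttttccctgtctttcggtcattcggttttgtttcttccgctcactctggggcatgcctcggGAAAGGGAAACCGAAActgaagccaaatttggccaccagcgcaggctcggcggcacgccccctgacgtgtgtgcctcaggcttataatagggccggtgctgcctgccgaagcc
IFI6, chr1:27672193-27672392, - strand: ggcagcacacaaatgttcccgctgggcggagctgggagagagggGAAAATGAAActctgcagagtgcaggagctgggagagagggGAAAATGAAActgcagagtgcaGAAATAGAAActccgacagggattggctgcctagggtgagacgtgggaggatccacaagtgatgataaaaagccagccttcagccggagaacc
IFI27, first start, chr14:94110536-94110735, + strand: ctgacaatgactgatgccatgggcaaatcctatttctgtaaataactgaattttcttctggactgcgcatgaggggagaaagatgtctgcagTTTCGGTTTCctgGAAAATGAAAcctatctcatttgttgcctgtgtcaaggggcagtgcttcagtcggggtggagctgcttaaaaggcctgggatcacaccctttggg

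IFIT1 held 2 matches, which begin at positions -116 and -103, counted back from the start. IFIT3 held 2 before each of its starts, and IFIT5 held 3. The nearest of these begins at -4 and runs past the end of the printed bases. IRF9 held none in this window. The table had promoters for 31 of the 39 genes, 42 windows in all, each from 250 bases before to 50 bases after a start. The 8 genes it did not name are DHX58, IFIT2, IRF7, MX2, OAS2, OASL, TRIM22 and USP18. A match stood in 21 of the 31 genes, or 67.7%, against 4.38% of all 27305 genes of the table. By window the shares were 59.5% and 3.57%. The consensus estrogen response element (GGTCA, any 3 bases, TGACC) stood in 0 member windows and in 0.0570% of all. A match is a description of these letters and was not tested for binding.

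E2-BSA against control measured the response to the conjugated hormone at 3 h. IFIT1, IFIT2, IFIT3 and IRF9 fell, and IFIT5 did not pass. IFIT3 was 1.97-fold lower, IFIT2 1.77-fold, IFIT1 1.66-fold and IRF9 1.57-fold, each on its lead probe set, the one that varied most within array sets. With limma and the array set as a block, 4 of the 38 genes passed an adjusted p of 0.05 in the lower direction, against 0.329% of all genes, and 0 in the higher direction, against 0.703%. At an unadjusted p under 0.05, 12 were lower, against 5.68% of all genes, and 2 higher, against 6.75%. The median over the 38 genes was -0.15 (log2), against 0.01 over all genes, and 29 of the 38 differences were negative, against 47.5% of all genes.

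The IFIT genes encode cytoplasmic proteins that bind viral RNA, IFIT1 by its unmodified 5′ end, with IFIT2 and IFIT3 as partners in the same complex. IFIT3 read 0.88 on control 1, 0.91 on estradiol and 0.01 on E2-BSA 1. On the larger set it read -0.36 on control 2, -0.08 on ethanol, -0.01 on BSA, -1.45 on E2-BSA 2, -0.42 on ICI, -0.43 on E2-BSA with ICI, 0.07 on G15 and -0.44 on E2-BSA with G15. E2-BSA 2 was the lowest array of the larger set by a wide gap, and E2-BSA 1 the lowest of the smaller. The difference between E2-BSA and control was -0.87 in the smaller set and -1.09 in the larger. The fitted difference was -0.98 ± 0.12 (SE; 95% confidence interval -1.24 to -0.71; limma adjusted p = 0.00296). The second IFIT3 probe set moved the same way by less, -0.31 ± 0.12 (adjusted p = 0.39), and did not pass.

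IFIT2, which also takes part in cell death, read 1.12 on control 1, 0.84 on estradiol and 0.16 on E2-BSA 1. On the larger set it read -0.11 on control 2, -0.08 on ethanol, -0.08 on BSA, -0.80 on E2-BSA 2, -0.28 on ICI, -0.23 on E2-BSA with ICI, -0.04 on G15 and -0.43 on E2-BSA with G15. Both E2-BSA arrays were the lowest of their sets. The fitted difference was -0.82 ± 0.13 (SE; limma adjusted p = 0.0106), with -0.96 in the smaller and -0.68 in the larger set. The second IFIT2 probe set gave 0.10 ± 0.13 (adjusted p = 0.89), of opposite sign, so the call rests on 1 of its 2 probe sets.

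IFIT1 is measured by a single probe set. It read 0.79 on control 1, 1.24 on estradiol and -0.09 on E2-BSA 1. On the larger set it read -0.22 on control 2, -0.27 on ethanol, -0.13 on BSA, -0.80 on E2-BSA 2, -0.38 on ICI, -0.24 on E2-BSA with ICI, 0.44 on G15 and -0.42 on E2-BSA with G15. E2-BSA 2 was again the lowest and G15 the highest of the larger set. The fitted difference was -0.73 ± 0.13 (SE; limma adjusted p = 0.0213), from -0.88 and -0.58 in the 2 sets.

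IFIT5, the member of the family that binds other RNA ends and stands apart from the IFIT1 complex, differed from these. It read 0.18 on control 1, 0.30 on estradiol and 0.36 on E2-BSA 1, and on the larger set from -0.49 on ICI to 0.14 on ethanol, with control 2 at -0.27 and E2-BSA 2 at -0.28. The fitted difference was 0.09 ± 0.12 (adjusted p = 0.907). Its promoter window holds 3 ISRE matches, the last of them only partly printed above, against 2 in that of IFIT1 and in each window of IFIT3.

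**Figure D1:**
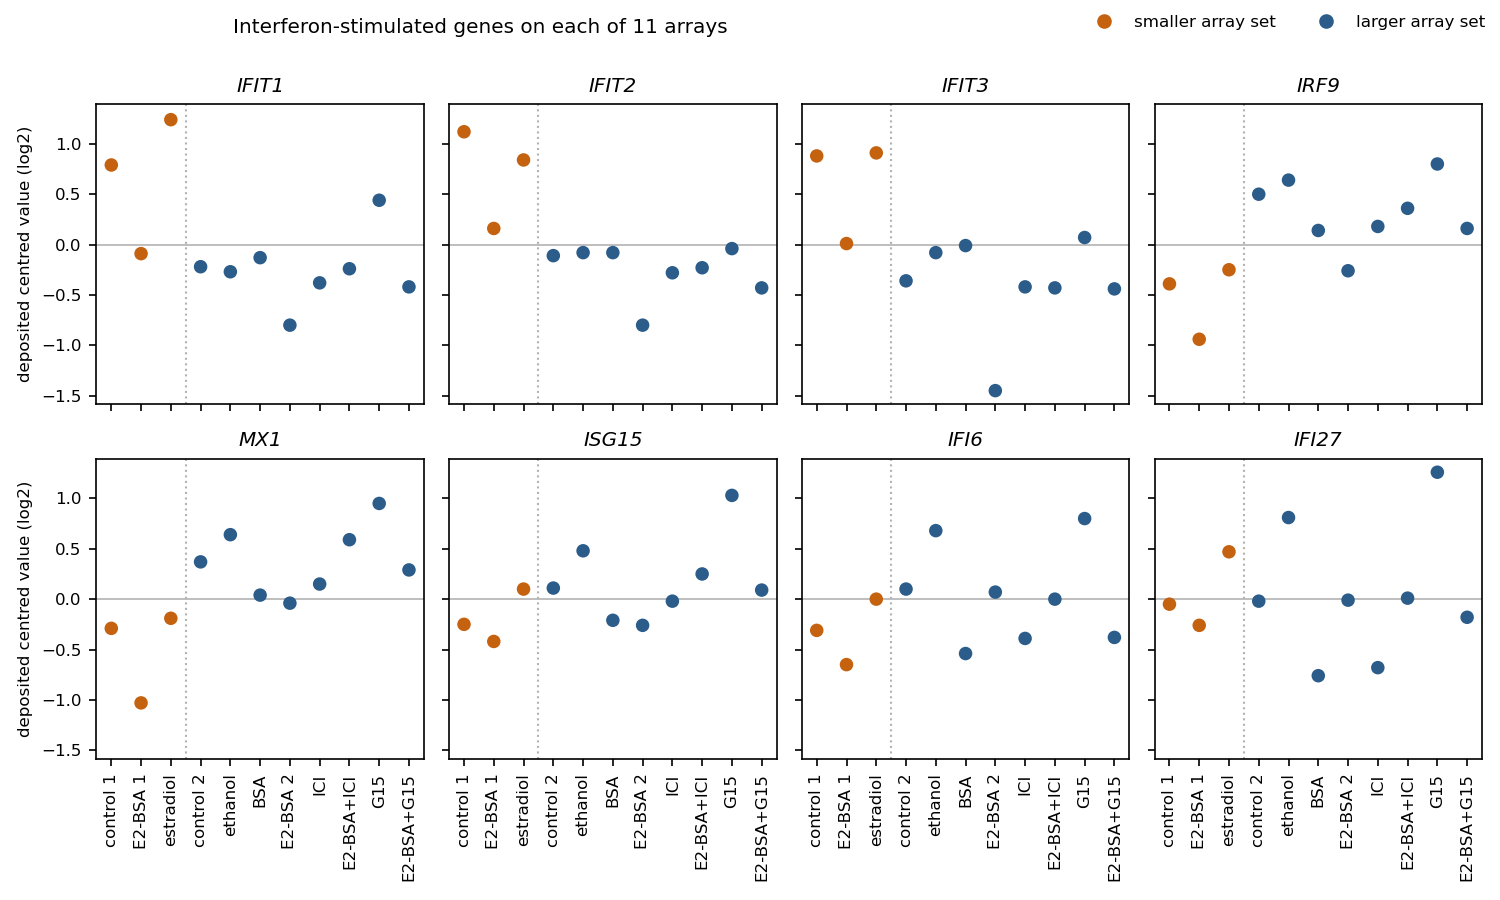
Deposited centred values (log2, vertical axis) of 8 interferon-stimulated genes on each of the 11 arrays (horizontal axis), 1 point per array, with the smaller array set left of the dotted line and the larger right of it. IFIT1, IFIT2, IFIT3, IRF9, MX1 and ISG15 have their lowest point of each set on an E2-BSA array, whereas IFI27 and IFI6 are highest on G15 and ethanol within the larger set.

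IRF9, the DNA-binding subunit of ISGF3, read -0.39 on control 1, -0.25 on estradiol and -0.94 on E2-BSA 1. On the larger set it read 0.50 on control 2, 0.64 on ethanol, 0.14 on BSA, -0.26 on E2-BSA 2, 0.18 on ICI, 0.36 on E2-BSA with ICI, 0.80 on G15 and 0.16 on E2-BSA with G15. Within each set the lowest reading was that of E2-BSA. The fitted difference was -0.65 ± 0.12 (SE; limma adjusted p = 0.0328), from -0.54 and -0.76. IRF7, the factor that amplifies interferon production, did not share this: it gave -0.09 ± 0.14 (adjusted p = 0.923). It read -0.41, -0.24 and -0.24 on control 1, estradiol and E2-BSA 1, and from -0.07 on E2-BSA 2 to 0.59 on ethanol on the larger set, with 0.28 on control 2, 0.09 on BSA, 0.07 on ICI, 0.17 on E2-BSA with ICI, 0.48 on G15 and 0.22 on E2-BSA with G15.

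MX1, a GTPase that traps viral nucleocapsids, came next and did not pass: -0.57 ± 0.13 (SE; limma adjusted p = 0.0774), with -0.73 and -0.41 in the 2 sets. It read -0.29 on control 1, -0.19 on estradiol and -1.03 on E2-BSA 1. On the larger set it read 0.37 on control 2, 0.64 on ethanol, 0.04 on BSA, -0.04 on E2-BSA 2, 0.15 on ICI, 0.59 on E2-BSA with ICI, 0.95 on G15 and 0.29 on E2-BSA with G15. The E2-BSA arrays were the lowest of their sets, close to BSA in the larger. ISG15, a ubiquitin-like modifier, gave -0.27 ± 0.12 (adjusted p = 0.508). It read -0.25, 0.10 and -0.42 on control 1, estradiol and E2-BSA 1, and on the larger set 0.11 on control 2, 0.48 on ethanol, -0.21 on BSA, -0.26 on E2-BSA 2, -0.02 on ICI, 0.25 on E2-BSA with ICI, 1.03 on G15 and 0.09 on E2-BSA with G15. The G15 array stands above the rest there.

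The other roles held no call. Of the 4 RNA sensors and helicases, which detect viral RNA, 3 were negative, and IFIH1, the sensor MDA5, was the highest of all 38 genes at 0.39 ± 0.14 (adjusted p = 0.36), while its other 2 probe sets were negative. All 4 oligoadenylate synthetases, which make the messenger that activates RNase L, were negative, from -0.47 for OASL to -0.11 for OAS3. OAS1 gave -0.19 ± 0.13 (adjusted p = 0.722). It read 0.19 on control 1, 0.35 on estradiol and -0.21 on E2-BSA 1. On the larger set it read -0.04 on control 2, 0.05 on ethanol, 0.03 on BSA, -0.03 on E2-BSA 2, -0.37 on ICI, -0.06 on E2-BSA with ICI, 0.65 on G15 and -0.21 on E2-BSA with G15, so its high reading is again the G15 array. The ISG15 conjugation genes were split, 3 negative and 2 positive, and HERC5, the ligase that attaches ISG15, gave 0.33 ± 0.13 (adjusted p = 0.405). Of the other 8 antiviral effectors 6 were negative, with CMPK2, a nucleotide kinase gene, lowest at -0.39 ± 0.12 (adjusted p = 0.235). The 7 IFI and related genes ran from -0.43 for IFI44 to 0.15 for EPSTI1. IFI44 read 0.95 on both control 1 and estradiol and 0.53 on E2-BSA 1, and -0.15 on control 2 and -0.59 on E2-BSA 2, which E2-BSA with G15 shares as the lowest value of the larger set. The PARP pair, genes of ADP-ribosyl transferases, lay on both sides of 0, from -0.02 to 0.18.

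The 4 calls depended on the processing. Without the array set as a block, after quantile normalization, and with the mean of a gene's probe sets, 0 genes were called. With the mean of its probe sets IFIT2 gave -0.36 (adjusted p = 0.354), and IFIT1, IFIT3 and IRF9 had adjusted p of 0.0527, 0.051 and 0.0614. Across the 38 genes, 7 had probe sets of opposite sign in this comparison. The spread rests on 1 residual degree of freedom and 11.3 prior degrees of freedom.

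**Figure D2:**
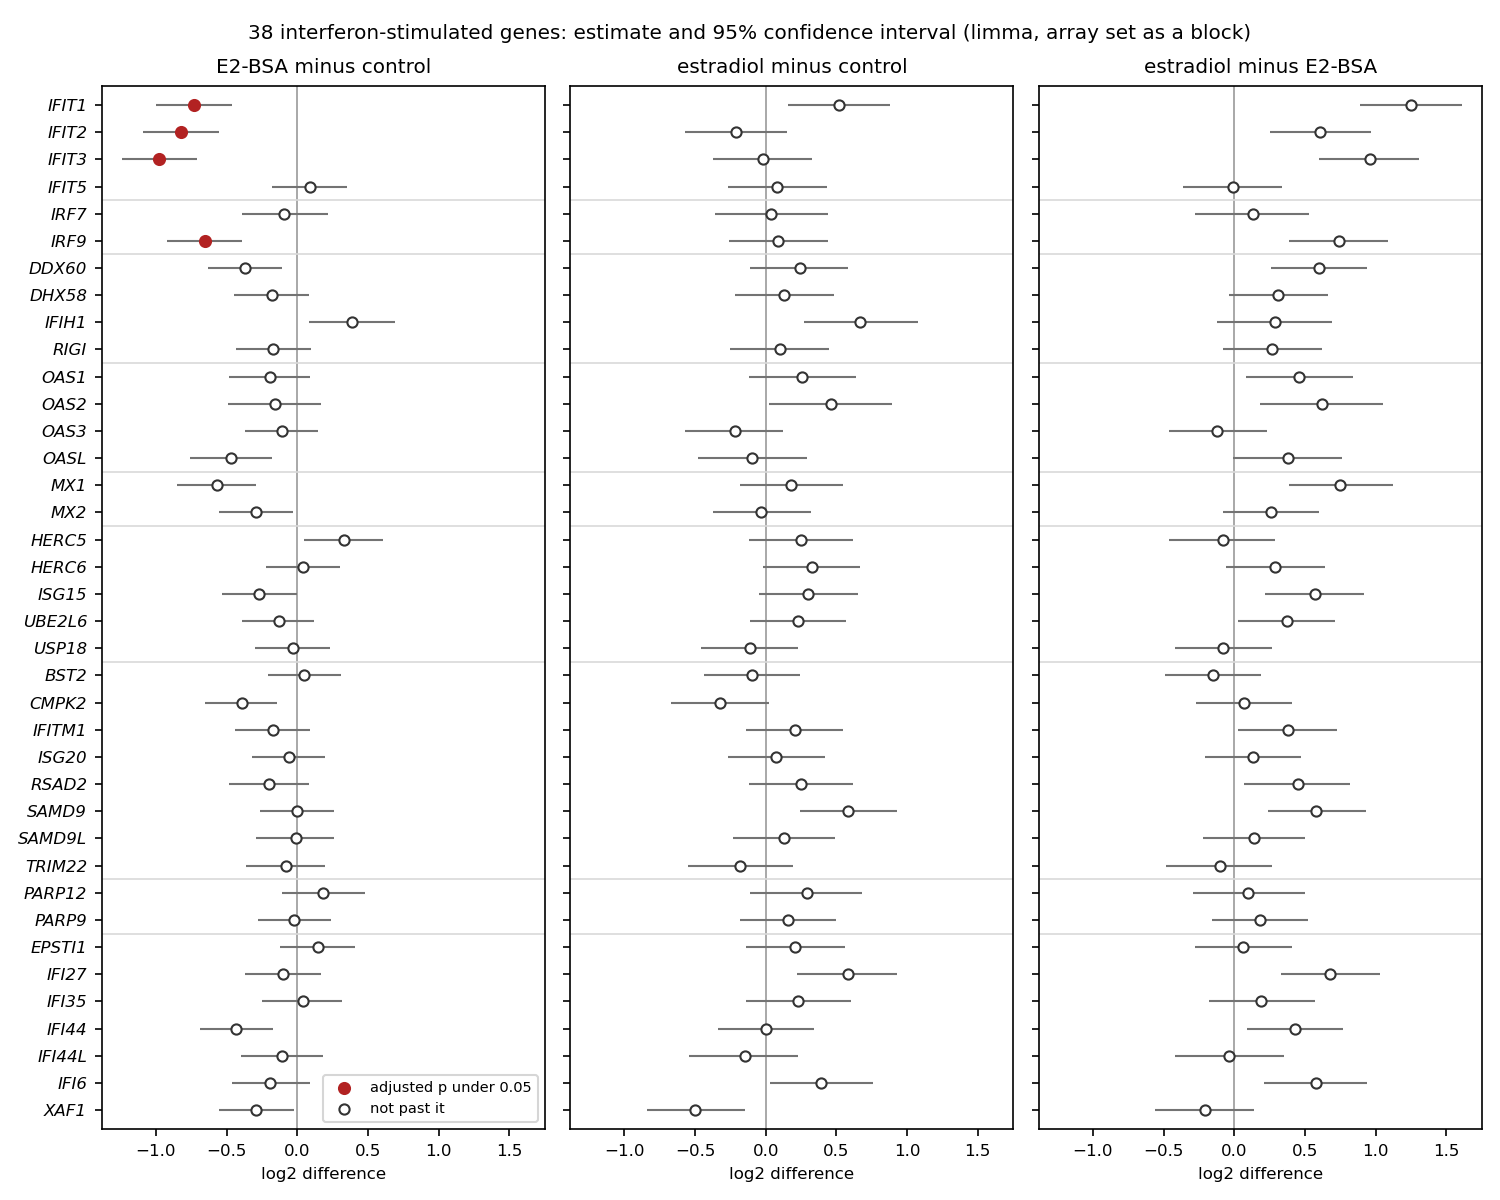
Estimated log2 differences (horizontal axis) with 95% confidence intervals for 38 interferon-stimulated genes (vertical axis, grouped by role) for E2-BSA minus control, estradiol minus control and estradiol minus E2-BSA, from limma with the array set as a block. Filled red points passed an adjusted p of 0.05: these are IFIT1, IFIT2, IFIT3 and IRF9 in the left panel alone.

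Estradiol against control asked whether the free hormone gives the same pattern. It did not lower IFIT2, IFIT3 or IRF9 by an amount detectable here: IFIT3 gave -0.02 ± 0.16 (95% confidence interval -0.37 to 0.33), IFIT2 -0.21 ± 0.17 (-0.57 to 0.15), and IRF9 0.09 ± 0.16 (-0.26 to 0.44). IFIT1 gave 0.52 ± 0.17 (limma adjusted p = 0.388), but 0.098 after quantile normalization and 0.95 without the block. The highest gene was IFIH1 at 0.67 ± 0.19 (adjusted p = 0.3), and the lowest XAF1, a pro-apoptotic interferon target, at -0.50 ± 0.16 (adjusted p = 0.392). The other probe sets of IFIH1 gave 0.31 and -0.11, and those of XAF1 -0.10 and 0.08. By limma 0 of the 38 genes were called, against 0.339% of all genes. Unadjusted p-values under 0.05 were found for 7 genes: 6 were higher (7.1% of all genes) and 1 lower (6%). The median was 0.14 against 0.01 for all genes, with 26 positive. Without the block, which sets the estradiol array against controls of both array sets, IFIT3 read 0.65. Estradiol has 1 array, in the smaller set. Ethanol has 1 array, in the larger set, so agent and array set cannot be told apart in that pair, which was not compared. The labels do not say which solvent carried estradiol.

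Estradiol against E2-BSA tested the difference between the free and conjugated hormone at 1 µM each. By their labels the hormone is bound to albumin in one and free in the other. IFIT1 was 2.38-fold higher with estradiol, 1.25 ± 0.17 on the log2 scale (95% confidence interval 0.89 to 1.61; limma adjusted p = 0.166), and IFIT3 1.94-fold, 0.96 ± 0.16 (0.60 to 1.31; adjusted p = 0.32). MX1 gave 0.75 ± 0.17, IRF9 0.74 ± 0.16, IFI27 0.68 ± 0.16 and IFIT2 0.61 ± 0.17, and IFIT5 gave -0.01 ± 0.16 (-0.36 to 0.34). The second IFIT2 probe set gave -0.24 ± 0.17, of opposite sign. None passed, since limma called 0 of all probe sets here, 4644 of which had an unadjusted p under 0.05. By that unadjusted p, 16 of the 38 genes were higher with estradiol, against 5.21% of all genes, and 0 lower. That count was 6 after quantile normalization, where IFIT1 gave 0.76 and IFIT3 0.62, and 2 without the block, where they gave 1.68 and 1.63. Leaving out the block sets the estradiol array against E2-BSA arrays of both array sets, so those values also hold the difference between the sets. The median was 0.29 against 0.01, with 30 of the 38 positive. In the smaller set, which holds both agents, 25 of the 38 genes were highest on estradiol (34.2% of all genes) and 22 lowest on E2-BSA 1 (30%). IFIT1 was the only one of the 38 to differ by 1 or more between these 2 arrays, by 1.33, as did 7 of all genes. By role, all 4 RNA sensors and helicases were positive, from 0.27 to 0.60, and the oligoadenylate synthetases ran from -0.12 to 0.62. The E2-BSA arrays are shared with the comparison against control, so the counts are not independent of it.

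The carrier BSA addresses what the albumin does. IFIT3 was 2.62-fold lower with E2-BSA than with BSA, -1.39 ± 0.16 (SE; limma adjusted p = 0.00565), the 1 call of the 38 genes, against 0.0556% of all genes lower. IFIT2 gave -0.79 ± 0.17 (adjusted p = 0.132), but its second probe set gave 0.39 ± 0.17, of opposite sign. IFIT1 gave -0.74 ± 0.17 (adjusted p = 0.162). IRF9, which was called against control, did not pass against BSA, at -0.35 ± 0.16. MX1 gave -0.15 ± 0.17 and ISG15 0.00 ± 0.16. IFI27, a mitochondrial protein gene used as a sensitive marker of interferon exposure, was the highest at 0.70 ± 0.16 (adjusted p = 0.185). It read -0.76 on BSA, its lowest value on any array. Without adjustment (p under 0.05), 8 were lower (4.01% of all genes) and 3 higher (5.01%). The IFIT3 call was lost without the block, after quantile normalization and with the mean of its probe sets, where its value was -0.89 (adjusted p = 0.111).

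BSA alone and ethanol alone gave no call. For BSA against control limma called 0 of the 38, against 0.106% of all genes, with 3 lower (3.89%) and 2 higher (2.95%) at an unadjusted p under 0.05. IFI27 was lowest at -0.80 and IFIT3 highest at 0.41. IRF9 gave -0.31 ± 0.16 and MX1 -0.42 ± 0.17 with BSA alone. For ethanol against control 0 were called, against 0.526%, with 1 lower (4.04%) and 7 higher (6.1%) before adjustment, and IFI27 was highest at 0.77. IRF1, a factor outside the 38 genes that can bind the same element, was 6.73-fold higher on the ethanol array than in control, 2.75 ± 0.16 (limma adjusted p = 3.72e-06), and 4.01-fold on its second probe set (2.00 ± 0.16, adjusted p = 5.18e-05). Neither passed without the block (adjusted p = 0.9999) or after quantile normalization, where they gave 1.69 (adjusted p = 0.0533) and 1.52 (adjusted p = 0.0597). Both stayed called with robust eBayes, and the mean of the 2 probe sets gave 2.38 and also passed. The lead IRF1 probe set read 2.80 on ethanol and -0.36 to 0.29 on the other 10 arrays. None of the 38 genes passed on that array: their median was 0.10 against 0.00 for all genes.

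**Figure D3:**
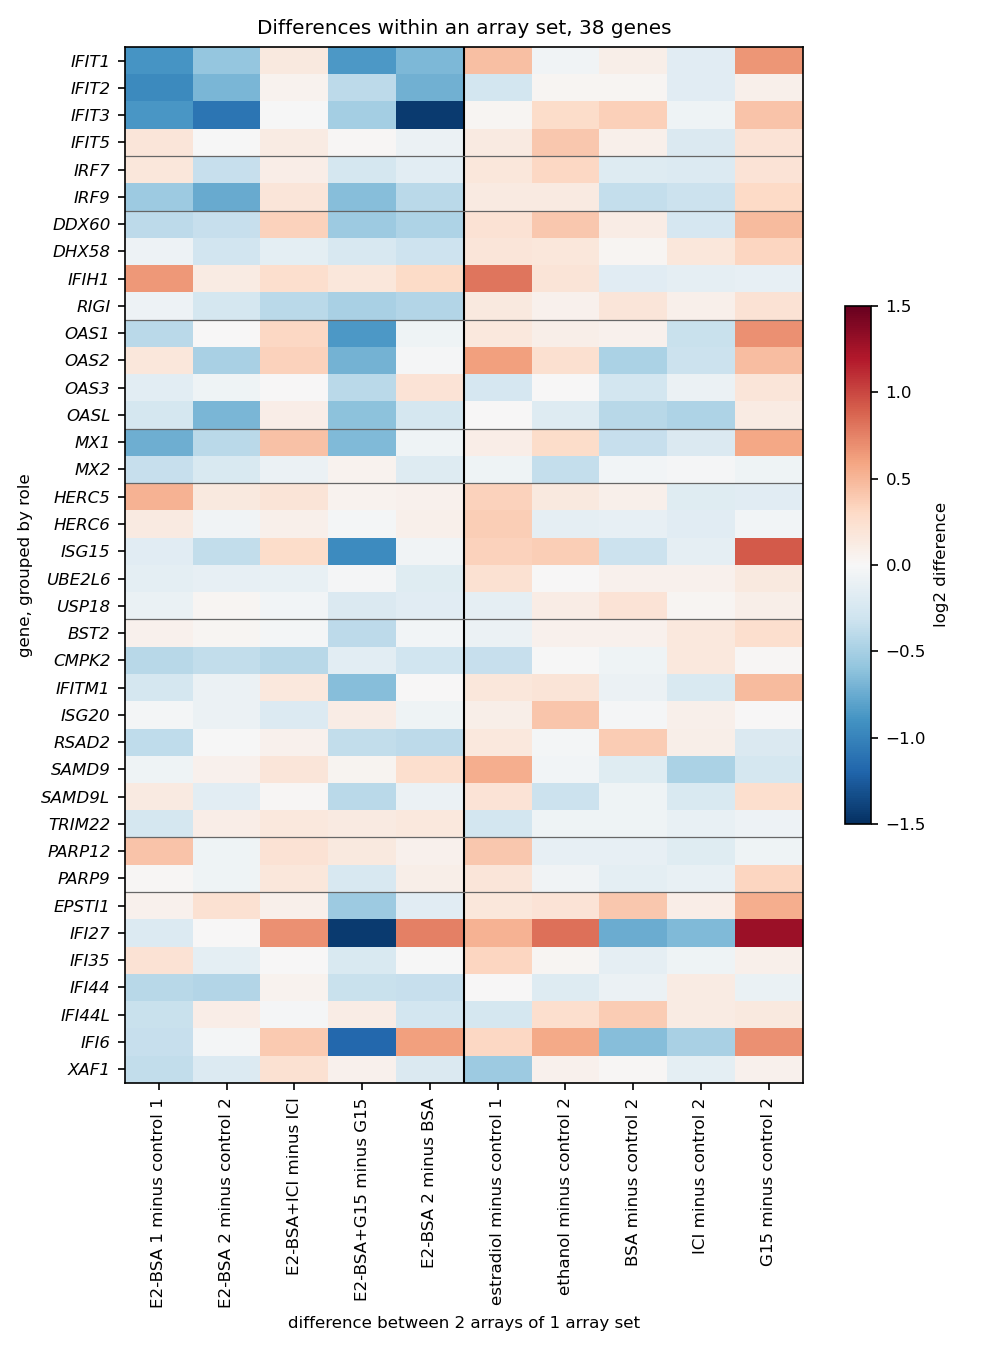
Differences between 2 arrays of the same array set (log2, colour scale from -1.5 to 1.5) for 38 interferon-stimulated genes (rows, grouped by role, lead probe set of each). The 5 columns left of the line compare E2-BSA with its matched control, where IFIT1 to IFIT3 and IRF9 are blue except in the presence of ICI, and the 5 on the right show single agents, where G15 is mostly red.

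E2-BSA was also given over ICI and over G15, which asked whether an antagonist changes the response. Over ICI the IFIT response was not seen on the lead probe sets. There E2-BSA with ICI minus ICI was 0.15 for IFIT1, 0.05 for IFIT2, -0.01 for IFIT3 (95% confidence interval -0.38 to 0.37) and 0.18 for IRF9. The second IFIT2 probe set gave -0.48 ± 0.18, and the second IFIT3 probe set 0.08 ± 0.17. By limma 0 of the 38 genes were called and 0 of all probe sets, with 2 lower (3.7% of all genes) and 2 higher (4.87%) at an unadjusted p under 0.05. The median was 0.10, with 28 positive. IFIT3 read -0.42 on ICI alone and -0.43 on E2-BSA with ICI.

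The test of the difference between the 2 responses did not pass for any of the 38 genes. For IFIT2 the probe sets differed in sign, with the second at -0.59 ± 0.22. The response with ICI minus that without was 1.01 ± 0.22 for MX1 (limma adjusted p = 0.123), 0.97 ± 0.21 for IFIT3 (adjusted p = 0.124), 0.88 ± 0.22 for IFIT1, 0.87 ± 0.22 for IFIT2 and 0.84 ± 0.21 for IRF9. Without adjustment (p under 0.05), 13 of the 38 were higher, against 4.73% of all genes, and 0 lower. Set directly against E2-BSA, E2-BSA with ICI read higher for IFIT3 by 0.97 ± 0.16 (adjusted p = 0.125) and for MX1 by 0.71 ± 0.17 (adjusted p = 0.22), with 8 of 38 higher (4.41%) at an unadjusted p under 0.05 and 0 called.

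ICI alone against control gave 0 calls of any probe set and 4 of the 38 lower (3.81%) at an unadjusted p under 0.05. IFI27 was lowest at -0.71 ± 0.16 (adjusted p = 0.542) and IFI6, a gene whose product blocks viral replication at the endoplasmic reticulum, gave -0.57 ± 0.17 (adjusted p = 0.569).

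Over G15, IFI27 and IFI6 were the 2 of the 38 genes called lower with E2-BSA. IFI27 fell 2.72-fold from G15 to E2-BSA with G15, -1.44 ± 0.17 (SE; limma adjusted p = 0.0106), and IFI6 2.26-fold, -1.18 ± 0.18 (adjusted p = 0.0357). These were 2 calls of 38 in the lower direction, against 0.0354% of all genes. ISG15 gave -0.94 ± 0.17 (adjusted p = 0.0792), IFIT1 -0.86 ± 0.18 (adjusted p = 0.142), OAS1 -0.86 ± 0.19 (adjusted p = 0.168) and IRF9 -0.64 ± 0.17 (adjusted p = 0.31). At an unadjusted p under 0.05, 18 of the 38 were lower, against 4.6% of all genes, and 0 higher. The median was -0.35 against -0.02, with 28 negative. By role, all 4 oligoadenylate synthetases were negative, from -0.86 to -0.40, as were 3 of 4 IFIT genes and 3 of 4 sensors, while the median of the 5 ISG15 conjugation genes was -0.03. The IFI27 and IFI6 calls were lost without the block, after quantile normalization, where the values were -2.63 (adjusted p = 0.069) and -2.35 (adjusted p = 0.0734), and among gene means. The comparison is between 2 arrays, with the spread borrowed from the replicated groups.

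The G15 array was itself high for many of these genes, and it enters this comparison as the baseline. IFI27 read 1.26 on G15, 0.81 on ethanol and 0.47 on estradiol. It read -0.05 on control 1, -0.02 on control 2, -0.26 on E2-BSA 1, -0.01 on E2-BSA 2, 0.01 on E2-BSA with ICI, -0.18 on E2-BSA with G15, -0.68 on ICI and -0.76 on BSA. Over the larger set its values spanned 2.02, the most of the 38 genes. IFI6 read 0.80 on G15 and 0.68 on ethanol, and lay between -0.65 and 0.10 on the other 9 arrays. E2-BSA with G15 thus stood near control 2 for IFI27 and below it for IFI6.

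G15 against control gave 1.22 ± 0.16 for IFI27 (limma adjusted p = 0.107), 0.97 ± 0.16 for ISG15 (adjusted p = 0.239), 0.62 ± 0.17 for IFI6 (adjusted p = 0.665) and 0.62 ± 0.20 for OAS2 (adjusted p = 0.855). Limma called 0 of all probe sets, and 13 of the 38 genes were higher (3.26% of all genes) and 0 lower at an unadjusted p under 0.05. The median was 0.24, against 0.02 for all genes, and 32 were positive. Of the 38 genes, 22 had their highest value of the larger set on the G15 array, against 11.6% of all genes. They include ISG15, MX1, IRF9, IFITM1, BST2, RIGI and all 4 oligoadenylate synthetases. On the E2-BSA 2 array 16 had their lowest value, against 13.4%. The ACTB 5′ to 3′ difference was -0.08 on G15, -0.07 on E2-BSA 2 and -0.37 on control 2, the lowest of the larger set. The same difference for GAPDH was -0.11 on G15, -0.19 on E2-BSA 2 and -0.13 on control 2. Whether RNA length bears on these readings was not tested. G15 was measured once, so G15 and its single array cannot be told apart.

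**Figure D4:**
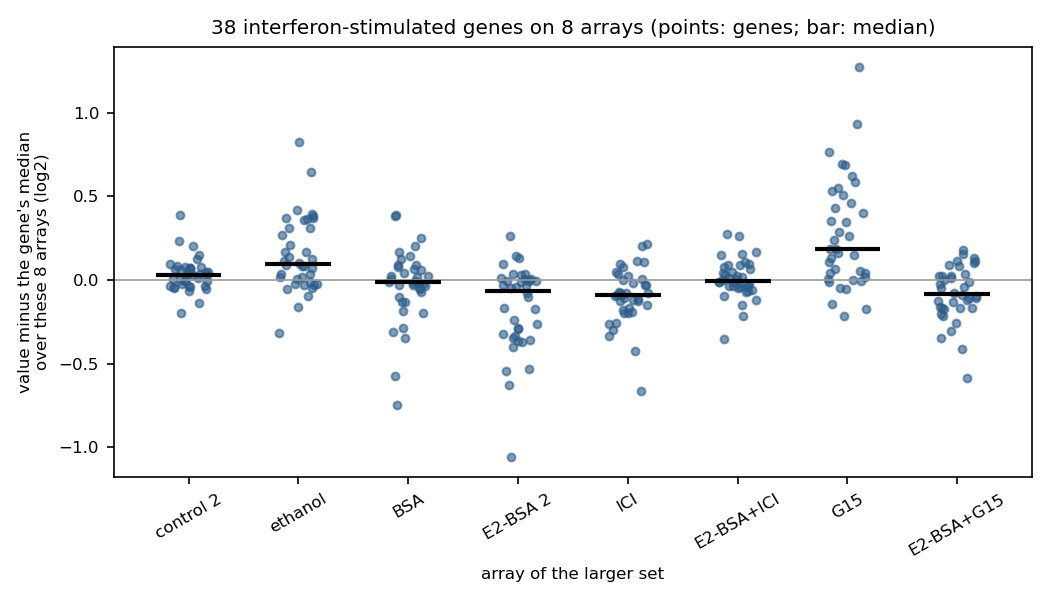
Values of 38 interferon-stimulated genes on the 8 arrays of the larger set, each minus the gene's median over those arrays (log2, vertical axis), 1 point per gene with the array median as a bar. The G15 median is the highest at 0.18, with 30 genes above 0, E2-BSA 2 and ICI have 27 genes below 0 each, with medians of -0.07 and -0.09, E2-BSA with G15 has a median of -0.08, and the lowest point is IFIT3 on E2-BSA 2 at -1.06.

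The response with G15 minus that without gave 0 calls. IFI27 was -1.34 ± 0.21 (limma adjusted p = 0.118) and IFI6 -0.99 ± 0.22 (adjusted p = 0.22), whereas IFIT3 was 0.47 ± 0.21 (adjusted p = 0.618). Unadjusted p-values under 0.05 gave 6 that were lower (4.73%) and 1 higher (5.05%). E2-BSA with G15 against E2-BSA gave 0 calls, 2 lower (4.54%) and 6 higher (4.93%) before adjustment, with IFIT3 highest at 0.95 ± 0.16 (adjusted p = 0.337) and RSAD2, the viperin gene, lowest at -0.49 ± 0.17 (adjusted p = 0.546). The second RSAD2 probe set gave 0.45 ± 0.17, of opposite sign.

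The 38 genes varied more than most over the larger set. Their range over its 8 arrays had a median of 0.56, against 0.41 for all genes, and ran from 0.17 to 2.02. In 7 of them it was 1 or more, against 1.54% of all genes: IFI27 (2.02), IFIT3 (1.52), IFI6 (1.34), ISG15 (1.29), IFIT1 (1.24), IRF9 (1.06) and OAS1 (1.02). They differed in which array set the low end. For IFIT3, IFIT1, IRF9 and ISG15 it was E2-BSA 2, for IFI27 and IFI6 it was BSA, and for OAS1 it was ICI. The high end was G15 in all 7. This measure was chosen after the values were seen.

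Averaged over the 3 backgrounds, 4 arrays with E2-BSA against 4 without, IFIT1, IFIT2, IFIT3 and IRF9 remained negative and were not called. IFIT3 gave -0.62 ± 0.16 (SE; limma adjusted p = 0.288), IFIT1 -0.54 ± 0.16 (adjusted p = 0.367), IFIT2 -0.50 ± 0.15 (adjusted p = 0.366) and IRF9 -0.44 ± 0.15 (adjusted p = 0.442). By limma 0 of 38 were called lower, against 0.116% of all genes, with 9 lower (5.11%) and 2 higher (5.83%) at an unadjusted p under 0.05. The median was -0.15, with 31 of 38 negative. Without the ICI array, or without E2-BSA with ICI, IFIT1 passed at -0.77 (adjusted p = 0.0476). Without the G15 array, or without E2-BSA with G15, the median of the 38 genes was -0.0636 and IFIT1 gave -0.44 (adjusted p = 0.694). CMPK2, DHX58, IFIT3, RIGI and UBE2L6 were lower with E2-BSA in all 4 pairs, 5 of 38 genes against 9.05% of all genes. In both pairs without an antagonist 20 of the 38 were lower, against 26% of all genes. The rank and pair counts were chosen after the values were seen.

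Upstream of these genes, JAK1, the kinase named above, rose with E2-BSA. Its lead probe set gave 0.95 ± 0.12 (limma adjusted p = 0.00296) with E2-BSA against control, 1.14 ± 0.16 (adjusted p = 0.0127) with estradiol against control and 0.74 ± 0.10 (adjusted p = 0.0465) over the 3 backgrounds. It read 0.47 on estradiol, 0.26 and 0.40 on E2-BSA 1 and 2, 0.21 on E2-BSA with G15 and -0.19 on E2-BSA with ICI, and -0.66 to -0.26 on the 6 arrays without hormone. The nearest readings with and without hormone were -0.19 on E2-BSA with ICI and -0.26 on ethanol. How many of all genes were separated this way was not counted, so the separation is not read as particular to JAK1. The lead probe set was also chosen as the most variable within array sets. Another JAK1 probe set read 0.82 on control 1 and 1.71 on both estradiol and E2-BSA 1 in the smaller set. In the larger set it overlapped, with -0.13 on E2-BSA 2 and -0.12 on BSA. All 3 calls were lost without the block (adjusted p = 1, 0.9999 and 0.767), after quantile normalization (0.531, 0.9999 and 0.303) and with the mean of the JAK1 probe sets, where the values were 0.38, 0.54 and 0.35. The call over the 3 backgrounds was also lost with robust eBayes (adjusted p = 0.0512) and on leaving out any 1 array other than the pair with ICI (0.207 to 0.258). The other 4 JAK1 probe sets did not pass with E2-BSA, at -0.02 to 0.46. The other 8 interferon receptor and Janus kinase genes did not pass in that comparison. IRF2BP2, a corepressor of IRF2, rose by 0.59 ± 0.12 with E2-BSA (adjusted p = 0.0486) on 1 of 6 probe sets, a call also lost without the block, after quantile normalization and with the mean of its probe sets (0.24). IRF1 gave 0.04 ± 0.12 (adjusted p = 0.965). IRF2BP2 and IRF1 belong to a list of other STAT and IRF factors. Of its 9 measured genes 6 were negative with E2-BSA, with a median of -0.11 and a lowest value of -0.39. By limma 2 of the 9 were lower at an unadjusted p under 0.05, against 5.68% of all genes. IRF2BP2 was the 1 higher, against 6.75%.

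The rest of the pathway held no call for E2-BSA against control by limma. None of the 9 interferon ligand genes measured passed, and 0 did at an unadjusted p under 0.05. Of all genes, 5.68% were lower and 6.75% higher at that unadjusted p. Among 13 genes that sense nucleic acid upstream of interferon, 0 were lower and 3 higher at that unadjusted p. Among 11 negative regulators, 0 were lower and 1 higher. A further 43 interferon-stimulated genes outside the 38 had 4 lower and 1 higher, with a median of -0.07 and 26 negative. Among 15 antigen-presentation genes, 0 were lower and 0 higher.

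Markers of other cell types, and of luminal epithelium, showed no call by limma in E2-BSA against control. At an unadjusted p under 0.05, 5.68% of all genes were lower and 6.75% higher in that comparison. Of 8 leukocyte markers 6 were negative, with a median of -0.05 a range of -0.20 to 0.32 and 1 higher at an unadjusted p under 0.05. All 4 markers of plasmacytoid dendritic cells, the main interferon producers of blood, were negative, from -0.55 to -0.00, with 1 lower at that unadjusted p. Fibroblast markers ran from -0.21 to 0.15 and endothelial markers from -0.01 to 0.16, with 0 past that unadjusted p in either, and 8 luminal epithelial markers from -0.56 to 0.42, with 1 lower and 2 higher. Their part in the IFIT result was not tested, and without levels none can be called absent. In RNA from a culture, fewer cells of a type and less RNA per cell cannot be told apart.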

How the data were processed

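T47D RNA was measured on Affymetrix HG-U133 Plus 2 arrays. The deposited table gives 1 value for each of 54675 probe sets and array, read as log2 from its size and spread. The authors had normalized the arrays to each other and centred each probe set; how they did so, and the log base, are not given in the sources used here. Centring leaves no expression level, so no filter on dim probe sets and no comparison of levels was possible.

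After removing 62 control probe sets, 54613 were tested. Names came from the platform annotation: 41091 probe sets had 1 symbol, 1801 several and 11721 none. Probe sets naming a member with another gene (2) were left out. For counts, 1 lead probe set stood for each gene, the one with the largest SD after removing each array set's mean. Values on every array were given for the IFIT genes, IRF9, IRF7, ISG15, MX1, OAS1 and called members, and list genes were named where a probe set passed, with IRF1 always; others were chosen after their values were seen.

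Array sets were cut from the average-linkage tree of array correlations. Group means over all 11 arrays, with the array set as a block, were fitted with limma 3.58.1 in R 4.3.3 (lmFit, eBayes), and p-values were adjusted by Benjamini-Hochberg over all probe sets. Groups with 1 array borrow the spread of the replicated groups. E2-BSA over 3 backgrounds used 8 arrays and the array set, with 3 residual degrees of freedom. The code was tested on simulated data. Promoters came from a RefSeq table (GRCh38.p14). The members, lists and tests were chosen with earlier results of these data known. The replicate numbers of control and E2-BSA coincide with the array sets, so the array set block is also the replicate block; alternatives were no block, quantile normalization, robust eBayes, gene means, no _x_at probe sets, fewer arrays and leaving out arrays. Those for E2-BSA with G15 against G15, for estradiol against E2-BSA, and for JAK1, IRF2BP2 and IRF1 were added after the data were seen.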

Additional observations from a re-analysis of the deposited data

How the results depend on the processing

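The counts of calls changed with the block, quantile normalization and gene means; the last also changes the set of tests from probe sets to genes. For E2-BSA against control the 4 calls became 0 with no replicate block, 0 after quantile normalization and 0 with gene means (0, 10 and 11 lower at an unadjusted p under 0.05), and stayed at 4 with the compared groups alone with replicate block, with robust eBayes and without _x_at probe sets. The 1 call against BSA and the 2 calls of E2-BSA with G15 against G15 also became 0 with no block, quantile normalization and gene means. Medians over the 38 genes moved for estradiol against control from 0.14 to 0.050 with no block and 0.0354 after quantile normalization, for E2-BSA against BSA from -0.10 to -0.19 with no block, for E2-BSA with G15 against G15 from -0.35 to -0.52 after quantile normalization and -0.24 with gene means, and for estradiol against E2-BSA from 0.29 to 0.19 after quantile normalization. Leaving out 1 array at a time gave medians of -0.16 to -0.11 for E2-BSA against control, which then has no residual degree of freedom and no test. Over 3 backgrounds it gave -0.19 to -0.0636 and 0 to 1 calls, the 1 without ICI or without E2-BSA with ICI and the median nearest 0 without G15 or without E2-BSA with G15. No called value reversed under the alternatives run for the interferon-stimulated genes, JAK1, IRF2BP2 and IRF1. Over all probe sets, calls for E2-BSA against control went from 359 to 0 with no block and after quantile normalization. The cause was not tested. The number of arrays limits every comparison.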
